A study of Homo sapiens with 61 samples.

Results

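H3K4me3 peaks of wild-type (WT) U2OS cells collected 1 h after UV-C light were compared with those of the same cells without UV, 6 of the 61 samples of the series (3 libraries per group). The members were the H3K4me3 immunoprecipitates labelled WT with 1 h of recovery or with no UV. U2OS is a human osteosarcoma line. Irradiated cells received 20 J/m2 at high confluency and recovered for 1 h. Cells without UV received 0 J/m2. Both groups carried ASH1L unedited, and per the labels no gene was deleted and no transgene was expressed in them. For comparison, ASH1L-/- U2OS cells, made with CRISPR/Cas9 and grown from an isolated colony, were measured without UV and at 1 h, and WT cells also at 3 h, again with 3 libraries per group. Because the knockout is a clonal line, its differences from WT cannot be told apart from those of a clone. Libraries of a group are named biological replicates in the labels, but no source used here ties them to separate culture days, so p-values measure the spread among these libraries.

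H3K4me3 is trimethylation of lysine 4 of histone H3, written by the SET1 and MLL (KMT2) methyltransferases with their shared COMPASS subunits and erased by the KDM5 enzymes. It sits on nucleosomes on both sides of the nucleosome-depleted start sites of genes, most of all at promoters rich in CpG dinucleotides, and its spread past the start site follows transcription. UV-C light links adjacent pyrimidines in DNA. These lesions stall RNA polymerase II and are cut out by nucleotide excision repair, while the irradiated cell switches on immediate early, NF-kappaB and p53 target genes. ASH1L is a histone methyltransferase, and the comparison asks what the mark looked like early after damage when it was present.

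The sequences below are the 250 bases before the start site of 3 such response genes whose H3K4me3 is described further on (hg38 reference genome, GENCODE 44 start sites, written in the direction of transcription). Capitals mark matches on either strand to 5 motifs: the cAMP response element TGACGTCA, the AP-1 site TGANTCA, the TATA box TATAAA, the GC box GGGCGG and the kappaB-like site GGNNTTTCC.
EGR2 (chr10:62816367-62816616, minus strand): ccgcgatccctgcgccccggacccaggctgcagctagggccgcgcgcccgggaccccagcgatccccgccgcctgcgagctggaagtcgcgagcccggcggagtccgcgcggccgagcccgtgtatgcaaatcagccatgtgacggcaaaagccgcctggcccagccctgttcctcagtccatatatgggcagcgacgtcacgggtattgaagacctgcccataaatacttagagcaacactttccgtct
CXCL8 (chr4:73740319-73740568, plus strand): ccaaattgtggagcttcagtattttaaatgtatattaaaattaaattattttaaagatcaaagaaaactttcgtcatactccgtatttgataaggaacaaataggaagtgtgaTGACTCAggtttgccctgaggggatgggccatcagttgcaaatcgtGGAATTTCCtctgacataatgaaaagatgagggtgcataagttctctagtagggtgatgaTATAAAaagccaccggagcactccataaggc
CDKN1A (chr6:36678464-36678713, plus strand): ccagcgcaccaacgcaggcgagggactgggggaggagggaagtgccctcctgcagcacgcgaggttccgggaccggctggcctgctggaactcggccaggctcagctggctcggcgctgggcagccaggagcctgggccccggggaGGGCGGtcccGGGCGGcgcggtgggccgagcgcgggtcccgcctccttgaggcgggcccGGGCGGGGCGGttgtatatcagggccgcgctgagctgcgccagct
CXCL8 held an AP-1 site from base -137, a kappaB-like site from base -91 and a TATA box from base -31. CDKN1A held 4 GC boxes, of which those from bases -45 and -40 overlap by 1 base. EGR2 held none of the 5 motifs as spelled. GC boxes stood in 59.0% of all promoters of this length, in 70.1% of the 14744 with a tested window and in 75.7% of the 3790 that gained cover at 1 h. For AP-1 sites the shares were 4.73%, 3.6% and 2.85%, for TATA boxes 9.36%, 5.97% and 4.93%, for kappaB-like sites 5.69%, 5.87% and 6.07%, and for the cAMP response element 2.41%, 2.99% and 3.17%. A match is a string of letters, not a bound site.

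At 1 h the H3K4me3 peaks were wider and lay under more of the genome, while promoters held fewer separate peaks. Each library was a list of peaks called by MACS2 in that library alone against pooled input controls. Without UV the lists held 91762, 111951 and 122482 peaks, and at 1 h they held 111335, 106413 and 142688, so the groups overlapped (log2 difference 0.14, exact permutation test, two-sided, p = 0.6). The median peak was 375, 369 and 388 bp wide without UV and 467, 484 and 470 bp wide at 1 h. All irradiated libraries lay above all others, with means of 377 ± 9.71 bp and 474 ± 9.07 bp (SD, n = 3 each, exact permutation test, p = 0.1). With 3 libraries against 3, 0.1 is the smallest p an exact two-sided test can give, so no library-wide measure could pass 0.05.

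Promoters, taken as the 4 kb around each protein-coding start site, held 15833, 17834 and 16774 peaks without UV. At 1 h they held 15123, 14640 and 15734, all below the former (log2 difference -0.15, exact permutation p = 0.1). Among peaks of at least 5-fold enrichment over input the difference was 0.0071 on the log2 scale, and its direction was thus lost. The bases under promoter peaks went the other way. They came to 28.3, 26.5 and 30.0 Mb without UV and to 31.5, 32.2 and 31.8 Mb at 1 h, a ratio of 1.13 with no overlap (exact permutation p = 0.1). Gene body cover was 20.7, 23.6 and 32.9 Mb without UV and 35, 35.1 and 45.2 Mb at 1 h, a ratio of 1.51. Intergenic cover was 21.1, 26.8 and 30.5 Mb and then 33.6, 34.1 and 47.6 Mb, a ratio of 1.47, again without overlap (exact permutation p = 0.1 for each). Numbers of gene body and intergenic peaks overlapped between the groups (exact permutation p = 0.4 and 0.6). Among peaks of at least 5-fold enrichment they did not, with log2 differences of 0.85 and 0.86 (exact permutation p = 0.1 for each). Promoter peaks had a median width of 1763 ± 259 bp without UV and 2352 ± 117 bp at 1 h, gene body peaks 343 ± 11.5 bp and 432 ± 7.55 bp, and intergenic peaks 328 ± 11.2 bp and 415 ± 5.20 bp (SD, n = 3).

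**Figure D1:**
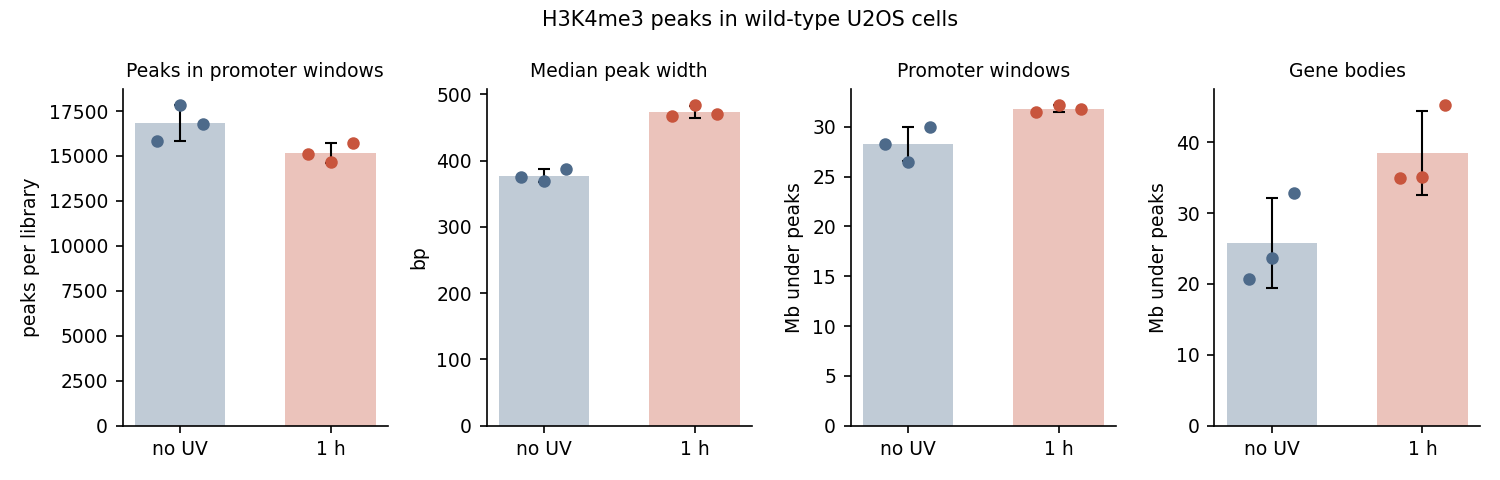
Promoter peak number, median peak width in bp, and Mb under peaks in promoter windows and gene bodies for each WT library (points), with the mean (bar) and SD (error bar, n = 3). Peak number is lower and the other 3 measures are higher in every 1 h library than in every library without UV.

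Depth and enrichment also differed between the groups. From the deposited p and fold enrichment of each peak, the background was 2.70, 4.02 and 3.2 fragments per base without UV and 3.65, 3.62 and 4.40 at 1 h. Fragments were extended to 195, 195 and 185 bp without UV and to 210, 205 and 205 bp at 1 h, so the reads of irradiated libraries were laid out slightly longer. The tallest peak of a promoter had a median fold enrichment of 9.87, 7.53 and 10.6 without UV and 13.9, 15.4 and 11.1 at 1 h. No-UV replicate 2, with the highest background of its group, had the lowest enrichment. The part of depth and enrichment in the results was not tested as a cause. As deposited, median width differed by a log2 value of 0.33. It differed by 0.33 when peaks that would fail at the depth of the shallowest library were dropped. That filter left the widths of the kept peaks as deposited, so it cannot show how depth acts on width. With all peaks trimmed to the shortest extension the log2 difference was 0.29.

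Around the start site, the largest difference lay in the gap just upstream. Peaks were averaged over 19970 genes in the 0.1 kb bin centred 0.15 kb upstream of the start site. They covered 52.7%, 42.1% and 52.8% of its bases without UV and 61.8%, 62.7% and 59.6% at 1 h. The groups did not overlap, and the means were 49.2 ± 6.16% and 61.3 ± 1.61% (exact permutation p = 0.1). At 0.25 kb downstream, near the crest, cover was 64.2 ± 1.23% without UV and 66.3 ± 0.15% at 1 h. Cover was also higher on both flanks, at 30.0 ± 2.40% and 35.4 ± 0.59% at 0.95 kb upstream and at 22.7 ± 3.19% and 28.6 ± 0.86% at 2.05 kb downstream (exact permutation p = 0.1 each). Separate peaks in a promoter were fewer: 3644, 5678 and 4189 promoters held at least 2 separate peaks without UV, and 2374, 1979 and 2922 did at 1 h. As a share of promoters with any peak these were 32.3 ± 7.91% and 16.9 ± 3.22% (SD, n = 3, exact permutation p = 0.1). Promoters with 1 peak numbered 10278, 8087 and 9989 without UV and 11994, 12325 and 11503 at 1 h. The lower number of promoter peaks thus went together with more promoters holding 1 longer peak.

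**Figure D2:**
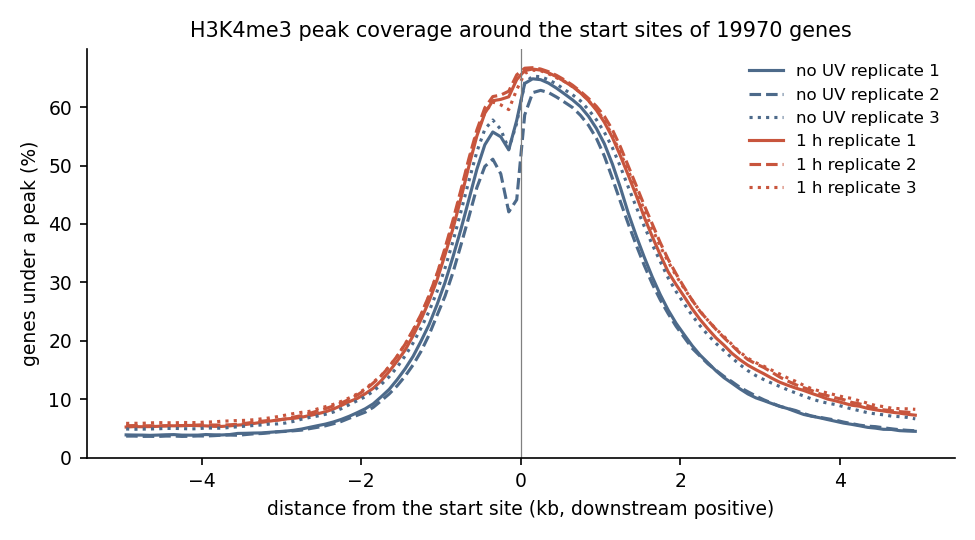
Share of bases under called H3K4me3 peaks in 0.1 kb bins, averaged over 19970 genes (y axis, percent), against the distance from the start site in kb (x axis, downstream positive), 1 line per WT library. The dip just upstream of the start site, at 42.1% to 52.8% in libraries without UV, stands at 59.6% to 62.7% at 1 h.

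Strong peaks were more numerous at 1 h in each class of region. Promoter peaks with at least 10-fold enrichment over input numbered 5628, 2549 and 6717 without UV and 9790, 10553 and 7406 at 1 h. Gene body peaks of that height numbered 384 ± 216 and 1103 ± 269, and intergenic ones 491 ± 275 and 1434 ± 426 (SD, n = 3). Fold enrichment depends on how well each immunoprecipitation worked, and the spread among libraries of a group was large.

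Among single promoters, nearly all change was upward, as long as absolute length was counted. Kilobases under peaks in each 4 kb window were fitted with limma over all 18 H3K4me3 libraries and adjusted by Benjamini-Hochberg over the 14745 windows with a peak in at least 3 libraries. At an adjusted p under 0.05, 3790 promoters were higher at 1 h (25.7% of those tested) and 1 was lower (0.00678%). The median change over all tested windows was 0.229 kb. In 6517 windows (44.2%) all irradiated libraries lay above all others, and in 11 (0.0746%) all lay below. These counts leaned on single libraries: without no-UV replicate 2 they fell to 926 higher promoters, without 1 h replicate 2 to 1403, without 1 h replicates 1 and 3 (each alone) to 2462 and 2434, and without no-UV replicate 3 they came to 6360. 844 of the 3790 passed in every fit that left out 1 library, and a fit to the 6 libraries alone called 538.

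The reading as a rise depended on counting absolute length. When each library was scaled to an equal total covered length, the median change became -0.499 kb, and 164 promoters were higher and 5 lower at an adjusted p under 0.05 (limma). At an unadjusted p under 0.05, 498 were higher and 4887 lower on that scale, against 6716 and 6 unscaled. Promoter bases under peaks were thus more numerous at 1 h but a smaller share of all H3K4me3 cover. Directions below are for absolute length and are given against the median of 0.229 kb. Total cover at 1 h had a ratio of 1.36 to that without UV, and windows cap at 4 kb. A window nearly full without UV therefore had to turn negative when scaled. One at 0 in every library without UV could not. The scaled sign thus follows the starting level in part, for genes and list medians alike. Adjusted p-values on that scale did not follow the spread of single genes, as given below for the largest increases.

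Promoters at every level were among the higher ones. Of promoters with under 1 kb covered on average over the 6 libraries 20.3% were higher (367 of 1808), and of those with 1 to 2, 2 to 3 and 3 to 4 kb 26.2%, 26.7% and 26.2%. In promoters with a CpG ratio (observed over expected) under 0.3, 129 of 920 were higher (14%, median 0.158 kb), against 3290 of 12301 (26.7%, median 0.231 kb) at a ratio of 0.6 or more, with no test of this difference. A promoter counted as marked when at least 2 of the 3 libraries had a peak in it. Marked promoters numbered 13915 without UV and 14336 at 1 h, 477 being gained and 56 lost. Under a strict rule, with a peak in 3 of 3 libraries against 0 of 3, 95 were gained and 1 was lost. The 1 promoter that was lower by limma was DRD3, a dopamine receptor gene, named after its value was seen. It was listed at 0, 0.765 and 0.589 kb without UV and at 0 in all 3 libraries at 1 h (difference -0.451 ± 0.145 kb, SE, limma adjusted p = 0.0346), and the groups overlap at 0.

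Promoter height was a separate measure from the same peaks. The fold enrichment of the tallest peak was compared on a log2 scale in 13343 promoters, and 4946 were higher at 1 h (37.1%) and 4 lower (0.03%), with a median log2 change of 0.51 (limma, adjusted p under 0.05). In 6006 promoters (45%) all 1 h libraries were taller, and in 36 (0.27%) all were shorter. After each library was centred on its own median, 402 were higher and 260 lower, so the one-sided split was not seen on that scale. The 4 lowered ones, named after their values were seen, were PLEKHA5, MNS1 and the facing pair HNRNPDL and ENOPH1, which share a peak. At PLEKHA5 the fold enrichment was 17.7, 13.7 and 19.2 without UV and 7.98, 10.0 and 11.2 at 1 h (log2 difference -0.79 ± 0.25, SE, limma adjusted p = 0.0162). The HNRNPDL and ENOPH1 peak went from 19.4, 17.6 and 20.9 to 10.9, 14.1 and 13.1 (log2 difference -0.61, adjusted p = 0.03), and that of MNS1 from 15.8, 12.4 and 16 to 8.37, 11 and 10.3 (log2 difference -0.58, adjusted p = 0.0407). At these promoters the groups did not overlap, and all 4 also passed after centring, with log2 differences from -1.32 to -1.11.

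Immediate early and stress transcription factor genes, which respond within minutes to hours without new protein synthesis, rose at 15 of 35 promoters (42.9%, against 25.7% of all tested promoters) with a median of 0.20 kb, below the median of all promoters. Without no-UV replicate 2 the count was 4, and none passed as lower at an unadjusted p under 0.05 (limma, 0 of 35). Their median turned to -0.698 kb on the scaled length. NR4A1, an orphan nuclear receptor induced by many stimuli, changed most. Its window held 1.71, 1.5 and 1.54 kb without UV and 3.44, 3.39 and 3.35 kb at 1 h. The 2 groups were far apart, with a difference of 1.81 ± 0.159 kb (SE, limma adjusted p = 2.26e-05), and the promoter was also higher on the scaled length (1.10 kb, adjusted p = 0.0487). The peak ended 0.458, 0.421 and 0.324 kb past the start site without UV and 2.30, 2.68 and 2.28 kb past it at 1 h, so the mark had run into the gene. Its upstream edge moved little, from between -1.25 and -1.07 kb to between -1.44 and -1.35 kb.

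EGR2, a zinc finger factor of the early growth response family, showed the same direction in another shape. Its window (chr10:62814366-62818365) held 2.22, 2.17 and 2.80 kb without UV and 3.83, 4 and 3.75 kb at 1 h (difference 1.46 ± 0.184 kb, SE, limma adjusted p = 0.000662). Without UV a second, weak peak of 1.49-fold to 1.83-fold enrichment began between 1.08 and 1.28 kb past the start site in every library, and at 1 h it was joined with the main peak in every library. Height did not follow: the fold enrichment was 6.12, 4.01 and 6.87 without UV and 4.28, 4.90 and 2.38 at 1 h (log2 difference -0.59, limma adjusted p = 0.12), and with peaks under 5-fold left out the length differed by -1.44 kb. EGR2 remained positive but did not pass on the scaled length (0.577 kb, adjusted p = 0.215).

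FOS and EGR1 started from nearly full windows, which cap at 4 kb. FOS held 3.96, 3.63 and 3.85 kb without UV and 4 kb in all 3 libraries at 1 h (difference 0.188 kb, limma adjusted p = 0.228), and EGR1 held 3.99, 3.63 and 4 kb and then 4 kb in each (0.125 kb, adjusted p = 0.257). A change in length could show only outside such windows, but height could change inside them. The height of FOS went from 13.7-fold, 10.0-fold and 11.6-fold to 18.8-fold, 24.7-fold and 14.8-fold (log2 difference 0.70, limma adjusted p = 0.0308). That of EGR1 went from 11.2-fold, 6.10-fold and 8.57-fold to 11.6-fold, 16.3-fold and 11.1-fold (0.61, adjusted p = 0.045). Once libraries were centred neither height passed (0.17 and 0.083, adjusted p = 0.651 and 0.82). JUN went from 3.66, 3.46 and 3.70 kb to 3.88, 3.77 and 3.76 kb (0.196 kb, adjusted p = 0.0432). ATF3, a stress-induced repressor, went from 2.96, 2.44 and 2.84 kb to 3.18, 3.14 and 3.06 kb (0.379 kb, adjusted p = 0.0317), and its height from 9.52-fold, 5.22-fold and 9.93-fold to 24.7-fold, 23.1-fold and 16-fold (log2 difference 1.40, limma adjusted p = 0.00081). Once libraries were centred, the ATF3 height difference was 0.87 and did not pass (limma adjusted p = 0.0682). The lengths of these 4 genes were negative on the scaled length, which the cap forced at FOS, EGR1 and JUN. The unscaled lengths of JUN and ATF3 no longer passed without no-UV replicate 2 (limma adjusted p = 0.213 and 0.172).

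**Figure D3:**
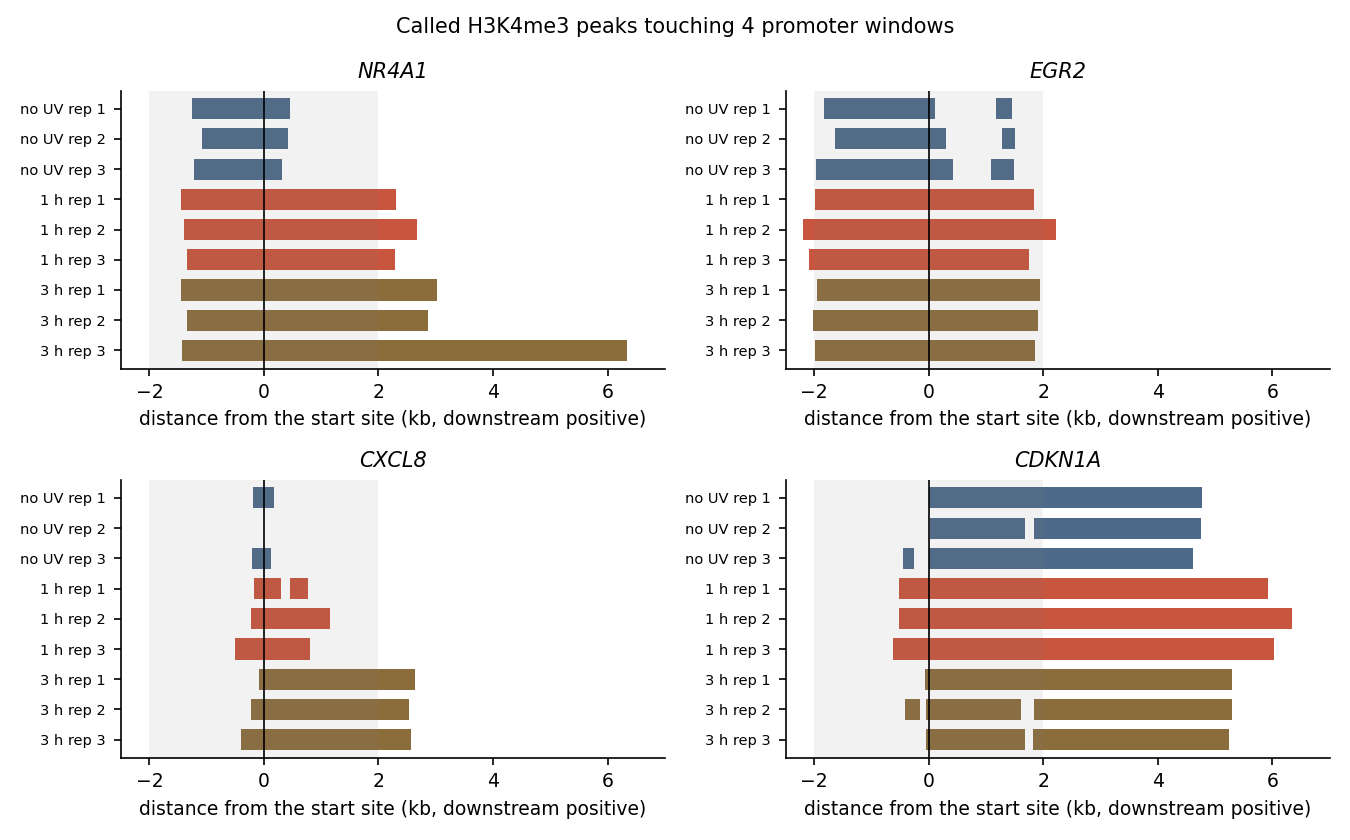
Called peaks (bars) at the promoters of NR4A1, EGR2, CXCL8 and CDKN1A against the distance from the start site in kb, 1 row per WT library without UV, at 1 h and at 3 h; the shaded band is the 4 kb window. At NR4A1 the downstream edge moves from at most 0.458 kb to at least 2.28 kb at 1 h.

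NF-kappaB and inflammatory genes rose at 7 of 19 promoters (36.8%, against 25.7% of all tested, and 2 without no-UV replicate 2), with a median of 0.245 kb (-0.368 kb on the scaled length) and 0 lower at an unadjusted p under 0.05 (limma). CXCL8 codes for the chemokine interleukin 8. Its window (chr4:73738569-73742568), with the AP-1, kappaB-like and TATA letters printed above, held 0.368, 0 and 0.326 kb without UV and 0.773, 1.39 and 1.3 kb at 1 h. The difference was 0.924 ± 0.157 kb (SE, limma adjusted p = 0.00231), and it was also positive on the scaled length (0.746 kb, adjusted p = 0.0209). These peaks were weak, at most 3.33-fold over input without UV and at most 4.33-fold at 1 h. PTGS2, the inducible cyclooxygenase, went from 2.81, 2.99 and 2.47 kb to 3.29, 3.86 and 3.69 kb (0.856 ± 0.165 kb, adjusted p = 0.00447), a sign that turned on the scaled length (-0.158 kb). Its fold enrichment was 17.8, 11.7 and 17.4 without UV and 12.6, 14.6 and 9.22 at 1 h, a log2 difference of -0.90 once libraries were centred (limma adjusted p = 0.00929), so its mark was longer and, relative to other promoters, lower.

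Targets of p53, the transcription factor that answers DNA damage and is intact in U2OS cells, rose at 11 of 29 promoters (37.9%, against 25.7% of all tested, and 3 without no-UV replicate 2), with a median of 0.238 kb (-0.697 kb on the scaled length) and 0 lower at an unadjusted p under 0.05 (limma). CDKN1A, which codes for the cell cycle inhibitor p21, held 2, 1.82 and 2.19 kb without UV and 2.52, 2.53 and 2.62 kb at 1 h (difference 0.555 ± 0.0939 kb, SE, limma adjusted p = 0.00224, -0.144 kb on the scaled length). At 1 h its peak began 0.518, 0.527 and 0.625 kb before the start site. Without UV the main peak began 0 kb from it in replicate 1, 0.017 kb past it in replicate 2 and 0.002 kb before it in replicate 3, which also held a small separate peak upstream. The gain thus covered the GC boxes printed above. GADD45A, a growth arrest gene, went from 2.51, 2.46 and 3.25 kb to 3.31, 3.44 and 3.53 kb (0.685 kb, adjusted p = 0.0358), and FDXR, a mitochondrial reductase, from 2.71, 2.07 and 2.98 kb to 3.27, 3.09 and 3.33 kb (0.638 kb, adjusted p = 0.029). Neither of those 2 passed without no-UV replicate 2 (adjusted p = 0.168 and 0.159), and both were negative on the scaled length. MDM2, the p53 ubiquitin ligase, did not pass in length (0.165 kb, adjusted p = 0.161), while its height went from 8.83-fold, 6.29-fold and 10.0-fold to 15.2-fold, 18.3-fold and 12.9-fold (log2 difference 0.90, limma adjusted p = 0.0056). Once libraries were centred, that height difference was 0.37 and did not pass (limma adjusted p = 0.105).

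Genes of nucleotide excision repair had shares of higher promoters on both sides of the background of 25.7%. In the following counts of length from limma 0 promoters of any list were lower, also at an unadjusted p under 0.05, and every list median turned negative on the scaled length. Centred heights gave 1 lower promoter in the damage recognition list, 1 lower in the TFIIH list and 1 higher in the transcription-coupled list (limma). For recognition of damage in the global genome 3 of 11 promoters rose (27.3%, median 0.222 kb), for the transcription-coupled branch 3 of 8 (37.5%, 0.304 kb), for TFIIH, XPA and the excision nucleases 1 of 16 (6.25%, 0.184 kb), and for gap filling and lesion bypass 5 of 18 (27.8%, 0.311 kb). Without no-UV replicate 2 these counts were 0, 0, 0 and 1. DDB1, part of the UV damage sensor, went from 2.86, 2.55 and 2.88 kb to 3.27, 3.18 and 3.14 kb (0.432 kb, limma adjusted p = 0.029). Neither XPC (0.114 kb, adjusted p = 0.506) nor DDB2 (0.159 kb, adjusted p = 0.255), the other sensors, passed in length, and their libraries overlapped. The height of XPC was 11.7-fold, 17.7-fold and 21.1-fold without UV and 13.6-fold, 15.2-fold and 8.76-fold at 1 h. Its log2 difference was -0.43 as deposited (limma adjusted p = 0.19) and -0.957 once libraries were centred (adjusted p = 0.049), with overlapping groups. The centred height of DDB2 did not pass (-0.144, adjusted p = 0.481). POLK, a translesion polymerase, went from 3.28, 3.37 and 3.67 kb to the full 4 kb in each library at 1 h (0.564 ± 0.0811 kb, adjusted p = 0.000941) and passed without any 1 of the libraries. POLR2A, the large subunit of RNA polymerase II, and ELOF1, an elongation factor of transcription-coupled repair, differed by 0.471 and 0.407 kb (adjusted p = 0.015 and 0.021) with overlapping libraries. GTF2H4, a TFIIH subunit, differed by 0.354 kb (adjusted p = 0.0438), and POLD1, the catalytic subunit of polymerase delta, by 0.540 kb (adjusted p = 0.029).

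ASH1L, its partner MORF4L1 (MRG15) and the FACT subunits SUPT16H and SSRP1 did not pass. The window of ASH1L held 2.74, 2.67 and 2.78 kb without UV and 2.87, 2.82 and 2.85 kb at 1 h (0.115 ± 0.0592 kb, SE, limma adjusted p = 0.137), and MORF4L1, SUPT16H and SSRP1 differed by 0.256, 0.193 and 0.0867 kb (adjusted p = 0.133, 0.175 and 0.221). Of the 5 genes of this list 0 were higher (median 0.193 kb), with 1 at an unadjusted p under 0.05. Writers of H3K4 methylation rose at 5 of 18 promoters (27.8%, median 0.252 kb) and H3K4 demethylases at 1 of 6 (16.7%, median 0.13 kb), with medians of -0.631 and -0.782 kb on the scaled length. Without no-UV replicate 2 these counts were 3 and 0. KMT2C, an MLL family methyltransferase, stood out among the writers, at 1.74, 1.92 and 2.25 kb without UV and 3.04, 3.23 and 2.96 kb at 1 h (1.11 ± 0.192 kb, adjusted p = 0.00255), and its height went from 7.02-fold, 5.97-fold and 7.86-fold to 12.5-fold, 10.6-fold and 9.44-fold (log2 difference 0.64, adjusted p = 0.032). Once libraries were centred, its height difference was 0.11 and did not pass (limma adjusted p = 0.723). On the scaled length KMT2C was positive without passing (0.395 kb, adjusted p = 0.289). WDR5, a COMPASS core subunit, and KDM1B, a demethylase of the mono- and dimethyl forms of H3K4, differed by 0.573 and 0.517 kb (adjusted p = 0.0239 and 0.023) with overlapping libraries.

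Checkpoint genes rose at 4 of 20 promoters (20%, median 0.274 kb), genes of replication and origin licensing at 6 of 28 (21.4%, 0.14 kb) and cytosolic ribosomal protein genes at 16 of 75 (21.3%, 0.164 kb), shares near the 25.7% of all tested promoters. Without no-UV replicate 2 these counts were 1, 1 and 3. CHEK2, a checkpoint kinase, went from 2.86, 2.61 and 3.03 kb to 3.09, 3.42 and 3.45 kb (0.492 kb, limma adjusted p = 0.00679), MDC1, a damage mediator, differed by 0.596 kb (adjusted p = 0.0302), and MCM10 and POLA1, needed to start replication, by 0.574 and 0.482 kb (adjusted p = 0.00808 and 0.0323). RPS15A and RPL13A differed by 0.537 and 0.425 kb (adjusted p = 0.0415 and 0.0134). All 6 of these differences were negative on the scaled length.

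Lists with shares above the background included replication-dependent histones, at 19 of 40 promoters (47.5%, median 0.318 kb), heat shock chaperones at 7 of 15 (46.7%, 0.242 kb), HOX genes at 13 of 29 (44.8%, 0.262 kb) and other developmental transcription factors at 26 of 68 (38.2%, 0.324 kb). Their medians on the scaled length were -0.51, -0.81, -0.519 and -0.075 kb, and without no-UV replicate 2 the counts were 10, 1, 2 and 10 (limma), against 926 of all promoters (all 0 lower, also at an unadjusted p under 0.05). Many histone and HOX windows overlap their neighbours, so the members are not independent. The windows of H2AC14 and H2BC14 overlap over most of their length, and values of histone genes with near-identical copies elsewhere are uncertain. H2AC14 went from 0.918, 0.990 and 1.86 kb to 2.45, 2.52 and 2.16 kb (1.12 kb, adjusted p = 0.015). HSPA8, a constitutive chaperone, reached the full 4 kb in each library at 1 h from 3.52, 3.46 and 3.76 kb (0.417 kb, adjusted p = 0.00909), and HSF1, the heat shock factor, differed by 0.392 kb (adjusted p = 0.0388) with overlapping libraries. HOXA6 went from 0.364, 0.301 and 0.290 kb to 1.14, 0.853 and 0.974 kb (0.670 kb, adjusted p = 0.00911), and HOXD11 differed by 0.770 kb (adjusted p = 0.0291) with overlapping libraries. NKX2-6, a homeobox gene of early development, was covered by 0, 0 and 0.457 kb without UV and by 1.83, 1.96 and 1.75 kb at 1 h (1.7 ± 0.112 kb, adjusted p = 1.46e-06), and its peaks were at most 3.86-fold over input. It was at 0 in every ASH1L-/- library, and the SE shared over the 18 libraries takes in that lack of spread. The fit to the 6 libraries alone gave an adjusted p of 0.0159 (limma).

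**Figure D4:**
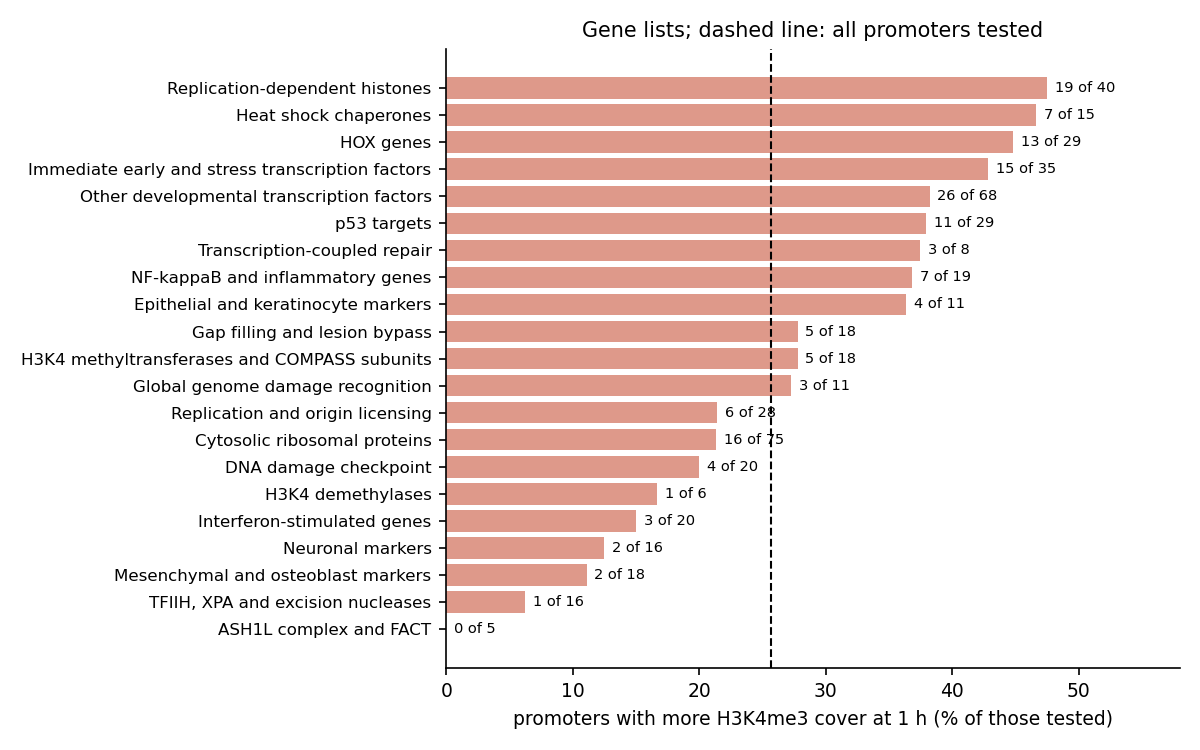
Share of tested promoters of each gene list (y axis) that were higher at 1 h by limma (x axis, percent), with the count beside each bar, for lists with at least 5 tested promoters. The dashed line is the 25.7% of all tested promoters, and the shares run from 0 of 5 for the ASH1L complex and FACT to 19 of 40 for histones.

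Markers of cell types other than the osteosarcoma line gave a check on the samples. Of 16 blood cell markers 2 had a testable promoter, of 12 hepatocyte and gut markers 2, and of 24 mesenchymal and osteoblast markers 18. Higher promoters numbered 0 of 2, 0 of 2 (limma, 1 and 0 at an unadjusted p under 0.05) and 2 of 18, among them TWIST2 (0.277 kb, adjusted p = 0.0247) and ZEB1 (0.238 kb, adjusted p = 0.041). The summed cover of blood cell markers was 0 to 1.3 kb without UV and 1.35 to 1.96 kb at 1 h, that of hepatocyte and gut markers 1.77 to 2.57 kb and 2.43 to 2.93 kb, and that of mesenchymal markers 46.4 to 48.7 kb and 51.3 to 51.9 kb. Epithelial genes rose at 4 of 11 testable promoters out of 21 genes, such as the desmosomal DSC3, at 0, 0 and 0.274 kb and then 0.618, 1.49 and 1.24 kb (1.02 kb, adjusted p = 0.00326), and the laminin gene LAMB3 (0.580 kb, adjusted p = 0.0248). Neuronal genes rose at 2 of 16 testable promoters out of 20 genes, SLC32A1 and GAD1 (0.555 and 0.537 kb, adjusted p = 0.0154 and 0.0216), which both serve GABA transmission. Of these 20 genes 13 were already marked without UV, so this list gave no such check. Interferon-stimulated genes rose at 3 of 20 (15%, median 0.236 kb), led by OAS2 and MX2 (0.790 and 0.639 kb, adjusted p = 0.000907 and 0.0231). OAS2, an RNA sensor, was listed at 0 in all 3 libraries without UV and at 0.485, 0.815 and 1.07 kb at 1 h. It was also at 0 in every ASH1L-/- library, and DSC3 was at 0 in most of them, which lowers the shared SE. With the 6 libraries alone the adjusted p was 0.0453 for OAS2 and 0.0545 for DSC3 (limma). The shares of the epithelial, neuronal, mesenchymal and interferon lists were 36.4%, 12.5%, 11.1% and 15%, beside 25.7% of all tested promoters. Without no-UV replicate 2 their counts were 1, 0, 0 and 2. On the scaled length TWIST2, ZEB1, LAMB3, SLC32A1 and GAD1 were negative, and DSC3, OAS2 and MX2 were positive.

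The 10 largest promoter increases included genes listed at 0 in some libraries without UV. CYP1B1, a cytochrome P450 that metabolises aromatic compounds, was listed at 0, 0 and 0.855 kb without UV and at 2.56, 2.86 and 1.64 kb at 1 h (2.07 ± 0.281 kb, SE, limma adjusted p = 0.000843). RDH5, a retinol dehydrogenase, held 0.541, 1.97 and 1.08 kb and then 3.12, 3.67 and 2.94 kb (2.04 kb, adjusted p = 0.00834), and MUC4, a membrane mucin, 2.75, 1.94 and 1.47 kb and then 4, 3.85 and 4 kb (1.90 kb, adjusted p = 0.00126). MUC4 was at 0 in every ASH1L-/- library and CYP1B1 in most, which lowers the shared SE. With the 6 libraries alone the adjusted p was 0.0354 for MUC4 and 0.0411 for CYP1B1 (limma). The spectrin gene SPTBN5 went from 0.677, 0.419 and 1.33 kb to 2.66, 2.72 and 2.73 kb (1.90 kb, adjusted p = 0.00222), and DKK1, a secreted WNT inhibitor, from 0.016, 0.264 and 1.43 kb to 1.86, 1.88 and 3.2 kb (1.74 kb, adjusted p = 0.00896). With NR4A1, the others were ENSG00000284969, SH3TC2, KRTAP12-3 and C6orf15, at 1.92, 1.84, 1.75 and 1.74 kb (adjusted p = 0.0124, 0.0161, 0.00969 and 0.00923), which did not pass without no-UV replicate 2 (adjusted p = 0.0655, 0.081, 0.0527 and 0.0562). All 10 stayed positive on the scaled length, where CYP1B1, SPTBN5, NR4A1, KRTAP12-3, DKK1 and C6orf15 had an adjusted p under 0.05 (limma). Those p-values did not follow the spread of single genes. KRTAP12-3 differed there by 1.295 kb (adjusted p = 1.502e-08), with unscaled SDs of 0.3796 kb without UV and 1.044 kb at 1 h. NR4A1 differed by 1.104 kb (adjusted p = 0.04874), with SDs of only 0.1134 and 0.04903 kb. Passing on that scale was thus not taken as added evidence for these promoters. At CYP1B1, MUC4, SPTBN5, SH3TC2, KRTAP12-3 and DKK1 no peak reached 6-fold over input.

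Inside genes, mean cover was higher at 1 h at every distance from the start site. Of the bases lying 2 to 5 kb past a start site 10.5 ± 1.99% were under peaks without UV and 14.2 ± 0.653% at 1 h, a ratio of 1.36. From 5 to 10 kb the shares were 2.93 ± 0.908% and 4.56 ± 0.441%, from 10 to 50 kb 1.83 ± 0.538% and 2.87 ± 0.405%, and beyond 50 kb 1.45 ± 0.366% and 2.21 ± 0.484% (SD, n = 3), with ratios of 1.55, 1.57 and 1.52. In the last of these classes the libraries ran from 1.12% to 1.84% without UV and from 1.90% to 2.77% at 1 h and did not overlap. Of 12402 gene bodies tested with limma 867 were higher (6.99%) and 2 lower (0.0161%), with a median change of 0.408 kb. All 1 h libraries were higher in 3598 (29%) and lower in 30 (0.242%). The calls were fragile: 98 of the 867 passed in every fit that left out 1 library, 114 bodies passed without no-UV replicate 2 and 127 without no-UV replicate 1, and a fit to the 6 libraries alone called 0 (2888 higher and 18 lower at an unadjusted p under 0.05). The share of higher bodies was 6.75%, 7.27%, 7.36% and 4.96% in genes under 10, of 10 to 50, of 50 to 200 and over 200 kb.

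TRAPPC9, a gene for a vesicle transport subunit near the end of chromosome 8, gained most. Its body of 728 kb held 69.1, 76.3 and 72.6 kb of cover without UV and 167, 142 and 128 kb at 1 h (73.2 ± 18.4 kb, SE, limma adjusted p = 0.0319). SHANK2, a synaptic scaffold gene, went from 35, 31.7 and 46.5 kb to 109, 81.3 and 90.2 kb (55.7 kb, adjusted p = 0.0188), and TCERG1L from 42.1, 44.3 and 66.2 kb to 85.2, 98.0 and 95.6 kb (42.0 kb, adjusted p = 0.0132). TSNARE1, also on chromosome 8, went from 29.9, 25.5 and 47.2 kb to 81.4, 70.4 and 74.2 kb (41.2 kb, adjusted p = 0.00498), and ADAMTS17, a metalloprotease gene, from 19.4, 25.9 and 27.4 kb to 44.2, 46.9 and 54.8 kb (24.4 kb, adjusted p = 0.0242). None of these 5 overlapped between the groups. The 2 lower bodies were ENSG00000272921, from 0.848, 2.28 and 1.20 kb to 0.312, 0.266 and 0.205 kb (-1.18 kb, adjusted p = 0.039), and YAE1, from 0.709, 0.410 and 0.612 kb to 0, 0 and 0.212 kb (-0.506 kb, adjusted p = 0.0197). Of these 7 named bodies 5 lost the call without 1 h replicate 1, 5 without no-UV replicate 1 and 5 without no-UV replicate 2. On the scaled length 4 lost it, and in the fit to the 6 libraries alone all 7 did (limma).

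When the peaks of all libraries were merged into 207688 regions, those that appeared and those that vanished at 1 h were alike small, weak and mostly away from promoters. A region was gained when at least 2 of 3 libraries at 1 h and fewer than 2 without UV held a peak there, and lost in the mirrored case. By this rule 32067 regions were gained, 9807 were lost, 56502 were held in both groups and 109312 in fewer than 2 libraries of both. With 3 of 3 against 0 of 3 the counts were 4181 and 383. Of the gained regions 2.69% lay in promoters, 42.0% in gene bodies and 55.3% between genes, against 23.2%, 31.8% and 45.0% of those held in both. For the lost regions these shares were 0.724%, 34.13% and 65.15%. The gained ones had a median width of 601 bp and a median highest enrichment of 3.19-fold, against 1472 bp and 4.98-fold for those held in both. The lost ones had 498 bp and 3.13-fold. A region held in both is usually merged from more lists, so its width and highest enrichment tend to be larger by the rule itself. The DNA of gained regions had a median GC content of 50% and a CpG ratio of 0.194, and the lost ones had 43.7% and 0.130. Regions held in both had a CpG ratio of 0.263. By class, gained regions and those held in both had ratios of 0.421 and 0.735 in promoters. In gene bodies the ratios were 0.201 and 0.195, and between genes 0.183 and 0.182. Regions within 5 Mb of a chromosome end made up 14.9% of the gained, 7.69% of the lost and 12.7% of those held in both. Gained regions per Mb ran from 4.42 on chromosome X and 4.99 on chromosome 13 to 19.7 on chromosome 20 and 24.4 on chromosome 19, but as a ratio to regions held in both they ran only from 0.514 to 0.648 over all chromosomes. These regions were not tested singly. Without 1 h replicate 3, the deepest library, the gained numbered 15874 and the lost 16224. That count kept the threshold of 2 libraries. With 1 library left out at 1 h, gains were thus harder to reach and losses easier. The change in both counts therefore cannot be credited to that library.

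The longest gained regions under the strict rule show what such sites look like. The 300 bases at the summit of 2 of them and of a lost region follow (hg38, plus strand, CpG dinucleotides in capitals), chosen to set poor CpG content beside the CpG-rich CDKN1A promoter above. Away from promoters, low CpG content was shared by gained regions and those held in both, so it is not particular to gained sites.
Gained, intergenic, 127 kb from the start site of COL6A3 (chr2:237286399-237286698): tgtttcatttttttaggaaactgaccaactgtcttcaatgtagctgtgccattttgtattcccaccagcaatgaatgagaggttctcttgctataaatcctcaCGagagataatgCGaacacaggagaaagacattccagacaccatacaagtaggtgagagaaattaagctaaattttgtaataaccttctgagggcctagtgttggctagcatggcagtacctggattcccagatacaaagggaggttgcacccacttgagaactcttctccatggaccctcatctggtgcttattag
Gained, in an intron of SMOC1 (chr14:69982414-69982713): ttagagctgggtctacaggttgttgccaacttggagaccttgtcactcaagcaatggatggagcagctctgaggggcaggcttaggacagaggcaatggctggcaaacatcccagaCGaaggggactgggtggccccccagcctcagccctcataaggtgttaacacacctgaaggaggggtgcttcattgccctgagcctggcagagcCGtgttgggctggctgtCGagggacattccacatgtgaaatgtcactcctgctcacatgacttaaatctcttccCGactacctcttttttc
Lost, in an intron of SCFD2 (chr4:53090178-53090477): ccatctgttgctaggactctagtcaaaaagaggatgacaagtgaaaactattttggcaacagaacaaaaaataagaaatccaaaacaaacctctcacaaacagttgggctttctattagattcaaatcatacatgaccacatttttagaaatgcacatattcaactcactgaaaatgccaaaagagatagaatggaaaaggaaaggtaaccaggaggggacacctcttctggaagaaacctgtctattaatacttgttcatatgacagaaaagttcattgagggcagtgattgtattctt
The COL6A3 site holds 2 CpG dinucleotides, the SMOC1 site 4 and the SCFD2 site 0, against 27 in the 250 bases before CDKN1A. The region near COL6A3 was covered over 2136, 1606 and 2255 bp at 1 h, with a highest enrichment of 3.51-fold, and over 0 bp without UV. That in SMOC1, a matrix protein gene, was covered over 2086, 1140 and 2679 bp, at up to 4.63-fold. The others of the 10 longest gained regions lay in introns of TSNARE1 (2684, 1482 and 2162 bp), KCNK9 (2714, 1571 and 1919 bp) and ZNF675 (1518, 1370 and 2390 bp), in exon-bearing parts of HSBP1 and FOXP4, 8.48 kb from NCK2, and at LINC00662 and LINC02987 on chromosome 19. Their enrichment was between 3.32-fold and 4.74-fold. The longest lost regions were shorter. They lay at the long non-coding genes PCAT1 (601, 667 and 761 bp without UV) and HISLA, in SCFD2 (210, 1102 and 551 bp), 1.13 kb from the start of the chemokine gene CCL1 (330, 823 and 686 bp) and 251 kb from CHD6.

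ASH1L-/- cells, which have their own libraries without UV, also had mostly upward changes. There 3390 promoters were higher and 18 lower at 1 h (limma, adjusted p under 0.05), with a median of 0.21 kb. The difference between the 2 early changes was tested directly: the signed change (1 h minus no UV) was higher in WT at 21 promoters (0.142%) and higher in ASH1L-/- cells at 3 (0.0203%). This small number does not show that the genotypes act alike, since the spread among libraries limits the test. In 9 of the 24 both ASH1L-/- groups were at 0 in every library, so that spread was not measured there. NKX2-6 was 1 of these, with a difference between genotypes of 1.7 ± 0.158 kb (SE, limma adjusted p = 0.000201). At NR4A1 the ASH1L-/- mean went from 1.78 to 3.18 kb (test of the difference, adjusted p = 0.71), at EGR2 from 1.7 to 3.54 kb (adjusted p = 0.79), at CXCL8 from 0.571 to 1.34 kb (adjusted p = 0.93) and at KMT2C from 1.92 to 2.64 kb (adjusted p = 0.79). CDKN1A stood at 1.99 kb before and 1.99 kb after UV in ASH1L-/- cells, but its difference from WT did not pass (0.558 kb, adjusted p = 0.154).

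**Figure D5:**
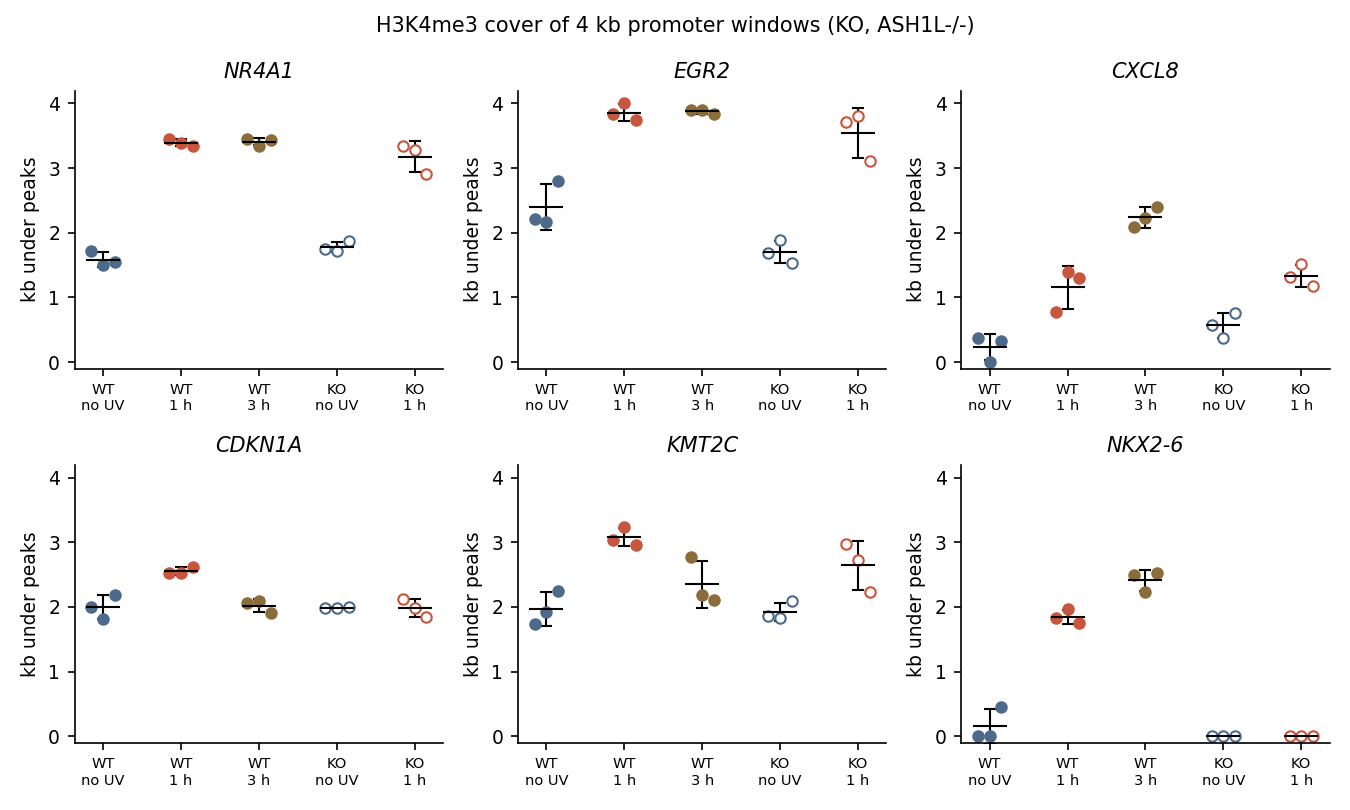
Kilobases under H3K4me3 peaks in the 4 kb promoter windows of NR4A1, EGR2, CXCL8, CDKN1A, KMT2C and NKX2-6, 1 point per library with mean and SD (n = 3), for WT cells without UV, at 1 h and at 3 h and for ASH1L-/- cells (KO, open points) without UV and at 1 h. NR4A1 stands at 3.35 to 3.44 kb at 1 h and 3 h in WT, CXCL8 is higher at 3 h than at 1 h, and NKX2-6 is at 0 in ASH1L-/- libraries.

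Few promoters passed the test of 3 h against 1 h. The comparison of 3 h with 1 h shares the 1 h libraries with the early change, so the values are given side by side. Of the 14745 promoters 17 (0.115%) were higher at 3 h than at 1 h and 28 (0.19%) were lower (limma, adjusted p under 0.05). Over the 3790 promoters raised at 1 h, which were chosen on the same 1 h libraries, the median of 3 h minus 1 h was -0.1155 kb, beside a median early change of 0.432 kb. Over all tested promoters the median of 3 h minus 1 h was -0.042 kb. NR4A1 held 3.44, 3.35 and 3.44 kb at 3 h, with 1 h values of 3.44, 3.39 and 3.35 kb. CXCL8 was higher again, at 2.09, 2.22 and 2.40 kb at 3 h (1.08 ± 0.157 kb above 1 h, adjusted p = 0.00999), and its enrichment reached 8.24-fold to 12.3-fold. NKX2-6 stood at 2.50, 2.23 and 2.52 kb (0.567 kb above 1 h, adjusted p = 0.0415). CDKN1A was back at 2.07, 2.09 and 1.91 kb (-0.536 ± 0.0939 kb, adjusted p = 0.0222), with the upstream edge of the main peak at 0.067, 0.048 and 0.055 kb before the start site. The DNA ligase gene LIG1, whose window overlaps that of ZSWIM9, and the homeobox gene NKX2-2 were also lower at 3 h (-0.527 and -0.599 kb, adjusted p = 0.0148 and 0.0312). Of the differences named here from 1 h, CXCL8 kept its call in every fit that left out 1 library and the other 4 did not.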

How the data were processed

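H3K4me3 was immunoprecipitated from U2OS cells and sequenced as single-end reads after repair of UV lesions in the DNA. Per the labels and the study's methods, the authors trimmed reads (Trim Galore 0.6.5), mapped them to hg38 lacking chromosome Y (BWA 0.7.17-r1188), dropped duplicates, blacklisted positions and poorly mapping reads (bedtools 2.29.2, Picard, SAMtools 1.7), and called narrow peaks in each library (MACS2 2.2.7.1), with input controls pooled and immunoprecipitates kept apart. The deposited lists give peak positions in hg38, the deposited fold enrichment (a ratio to the local background), and the deposited −log10 p-value and −log10 q-value of each peak. No list of the input samples was used here, and read totals were not used here. Background, extension and relative depth were recovered from the p and fold enrichment pairs of the peaks with a −log10 p under 8 (100% matched within 0.001), and the libraries were 1.08 to 1.67 times as deep as the shallowest of the 18. Any 2 of the 6 libraries shared 45.0% to 64.5% of their covered bases, so none was a copy of another.

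Peaks were assigned to promoters (start site plus and minus 2 kb, GENCODE 44 MANE or canonical transcript, 19970 protein-coding genes), then to gene bodies, then to intergenic DNA. Gene bodies began 2 kb past the start site in genes longer than 4 kb. A window was tested when at least 3 libraries had a peak in it. Kilobases under peaks and log2 of the highest fold enrichment of promoters were fitted with limma 3.58.1 (R 4.3.3) over 18 libraries in 6 groups. The fits had a trend and robust variances and were adjusted by Benjamini-Hochberg at 0.05. Fold enrichment was fitted only for promoters with a peak in all 18 libraries. For library-wide measures the tests were exact permutation tests, two-sided (numpy 2.4.6, Python 3.11.15). The study tested peak densities by analysis of variance, which was not used here with 3 libraries a group. The fits were tested on simulated data.

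The members, gene lists and tests were chosen with earlier results of these data known. Named were the 10 largest promoter and 5 largest gene body changes per direction that passed without overlap, up to 2 passing members per list, a fixed set of damage response genes, and the 10 longest gained and 5 longest lost regions under the strict rule. Promoters called lower and those differing between genotypes were named after their values were seen. Some items that these rules pick are not reported here. Alternatives were another window, filter, scale, peak threshold, equal peak numbers, the replicate number as a block, the 6 libraries alone and each library left out. Depth-matched and trimmed peaks were added after the data were seen.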

Additional observations from a re-analysis of the deposited data

Results flagged for a closer look

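The early change was compared between WT and ASH1L-/- cells by a test of the difference itself (WT change minus ASH1L-/- change, kb per 4 kb promoter window, limma, adjusted p under 0.05), and 24 promoters passed, the following among them. At SIGLEC6, PRSS3 and CD207, genes of cell surface and secreted proteins of other tissues, the differences were 1.90, 1.87 and 1.72 kb. PRSS3 and CD207 also fell in ASH1L-/- cells, with changes of -0.979 and -0.867 kb (limma adjusted p = 0.0121 and 0.0045), from 1.16 and 1.14 kb without UV. Among developmental regulators they were 1.7 kb at NKX2-6, 1.42 kb at FOXI2, 1.13 kb at PRDM14 and 0.831 kb at LHX9. At POM121L12, NPY, NPR3, SLC35D3, ANKRD30B, PTCHD3 and CPXCR1 they were 1.35, 1.16, 1.04, 0.835, 0.805, 0.709 and 0.503 kb. At ZNF416, ACTMAP, ELL3, NHLRC3, CLCN2 and POLR2H they were 1.08, 0.704, 0.683, 0.619, 0.388 and 0.298 kb. ACBD5, MRPS36 and GREB1L had the higher change in ASH1L-/- cells, with differences of -0.481, -0.586 and -1.26 kb.

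Values behind these differences were of several kinds. PRDM14 was at 0 kb without UV in WT, at 1.13 ± 0.31 kb at 1 h and at 0.106 ± 0.184 kb at 3 h, and at 0 in ASH1L-/- cells without UV and at 1 h (SD, n = 3). CLCN2 and POLR2H stood at the full 4 kb in ASH1L-/- cells before and after UV, where a rise could not be seen. The same limit holds for NHLRC3 and LHX9, which stood at 4 and 3.97 kb in ASH1L-/- cells without UV. GREB1L, a regulator of development, stood at 0.995 ± 0.136 kb without UV and 2.37 ± 0.194 kb at 1 h in ASH1L-/- cells and at 2.44 ± 0.203 kb and 2.55 ± 0.0718 kb in WT. Of the 24, 9 passed in every fit that left out 1 library, and 11 passed on the scaled length, where CLCN2 (-0.257 kb) and POLR2H (-0.374 kb) changed sign.

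The level at 3 h differed from that at 1 h, by the test of that difference, at these members of the gene lists (kb, limma, adjusted p under 0.05): CXCL8 by 1.08, NKX2-6 by 0.567, LIG1 by -0.527, CDKN1A by -0.536 and NKX2-2 by -0.599. On the scaled length all 5 kept their sign and CXCL8 alone passed (adjusted p = 0.0168).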

How the results depend on the processing

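With 1 library left out at a time, gained regions ranged from 15874 to 45345 and lost ones from 3636 to 16224, promoters higher from 926 to 6360 and lower from 0 to 8, gene bodies higher from 114 to 1975 and lower from 0 to 13, heights higher from 1221 to 6864 and lower from 1 to 6, genotype differences from 10 to 91, and differences of 3 h from 1 h from 17 to 62. Log2 differences of the library-wide measures kept their sign (promoter peaks -0.19 to -0.10, width 0.31 to 0.35, promoter cover 0.13 to 0.22, gene body cover 0.45 to 0.79). The region counts kept the threshold of 2 libraries with 1 left out, so part of their range follows from the rule itself. The strict rule gave 4181 gained and 383 lost regions. With peaks of at least 5-fold enrichment these were 5757 and 216, promoter peaks differed by 0.0071, promoters higher and lower were 468 and 0, bodies 388 and 1, genotype differences 225 and later ones 69. The 6 libraries alone gave 538 promoters higher and 0 lower (5054 and 1 at an unadjusted p under 0.05), 0 bodies in either direction (2888 and 18 unadjusted) and 7 heights lower (limma). The scaled length gave 164 promoters higher and 5 lower, 156 bodies higher and 4 lower, and 83 genotype differences. Centred heights gave 402 higher and 260 lower. A window of 1 kb on either side gave 2196 promoters higher and 0 lower. The q filter and equal peak numbers also gave 0 lower, and the latter 6 bodies lower. At an unadjusted p under 0.05 the 5-fold filter, the narrower window, the q filter and equal peak numbers gave 2, 4, 6 and 4 promoters lower (limma).

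Same-numbered libraries of the groups deviated together only weakly (r = 0.111, 0.0171 and 0.0953 over 14745 promoters). Differently numbered ones ran from -0.144 to 0.0451, so replicates 1 and 3 had the highest values. By the rule used, the numbers were not treated as pairs, and a weak pairing is not excluded. With the replicate block, promoters higher and lower were 4037 and 1, bodies 1696 and 4, heights 4474 and 8, and later differences 29. The smallest exact p over 3 pairs is 0.25.

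Of 1035 alternative values of the named promoters and bodies, 724 kept direction and call, 271 lost the call, 1 gained it and 39 changed sign. EGR2 was at -1.44 kb with peaks of at least 5-fold, and ATF3 at -0.0503 kb in the narrower window. On the scaled length (kb) PTGS2 was at -0.158, HOXD11 at -0.0615, GADD45A at -0.237, FDXR at -0.252, MDC1 at -0.233, LAMB3 at -0.337, MCM10 at -0.168, WDR5 at -0.399, POLK at -0.588, SLC32A1 at -0.125, CDKN1A at -0.144, POLD1 at -0.133, RPS15A at -0.262, GAD1 at -0.112, KDM1B at -0.159, CHEK2 at -0.474, POLA1 at -0.0238, POLR2A at -0.415, DDB1 at -0.503, RPL13A at -0.340, HSPA8 at -0.776, ELOF1 at -0.373, HSF1 at -0.713, ATF3 at -0.552, GTF2H4 at -0.184, TWIST2 at -0.484, MORF4L1 at -0.505, ZEB1 at -0.952, JUN at -0.990, SUPT16H at -0.737, FOS at -1.08, MDM2 at -0.771, DDB2 at -0.795, EGR1 at -1.14, ASH1L at -0.782, XPC at -0.866 and SSRP1 at -0.786. The scaled length divides by a total in which gene body and intergenic cover were higher at 1 h, and for the other changes the cause was not tested. Windows nearly full without UV, such as those of FOS and EGR1, had to turn negative on that scale because they cap at 4 kb. Peaks under the calling threshold and bases beyond the windows were not seen.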

Other observations

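Promoters with a height change against the library median were named after their values were seen. SMO, the Hedgehog signal transducer, stood at 6.59-fold, 3.84-fold and 5.43-fold without UV and at 15.9-fold, 18.6-fold and 12.1-fold at 1 h, a centred log2 difference of 1.03 (limma adjusted p = 0.00342). The kinase gene BCKDK, of branched-chain amino acid metabolism, stood at 6.64-fold, 6.39-fold and 6.68-fold and then at 20.8-fold, 23-fold and 16.8-fold (centred log2 difference 1.08, adjusted p = 0.00342). In the other direction, CARD8, an inflammasome sensor gene, stood at 11.4-fold, 11.5-fold and 15.5-fold and then at 7.85-fold, 7.93-fold and 8.61-fold, a centred log2 difference of -1.17 (adjusted p = 0.0404), while its uncentred difference of -0.64 did not pass (adjusted p = 0.101). The groups overlapped at none of these 3 promoters.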
